A study of Mus musculus with 11 samples.

Results

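The Nkx genes encode homeodomain transcription factors of the NK class, and 9 of them are described here by the binding sites called for the chromatin protein Smchd1 in and around each gene: Nkx1-2, Nkx2-1, Nkx2-2, Nkx2-4, Nkx2-5, Nkx2-9, Nkx3-2, Nkx6-1 and Nkx6-2. These 9 were chosen by symbol with the peak lists already known, out of 21779 coding genes in the RefSeq table, so the number of them that carry a peak is a description and was not tested. Smchd1 carried a GFP tag and was pulled down from cross-linked chromatin of neural stem cells with an antibody to GFP. The cells were homozygous for a Smchd1-GFP fusion knock-in allele (Smchd1 GFP/GFP), with 2 kinds of control: Smchd1+/+ wild-type cells, which lack the tag, and whole cell extract. All lines had been derived from C57BL/6 embryos at embryonic day 14.5 and kept for at most 20 passages, and the labels do not say whether a line was a single clone. In the experiment that fragmented chromatin with micrococcal nuclease (MNase), 2 knock-in libraries, 1 male and 1 female, stood against 2 wild-type libraries, 1 male and 1 female, and 1 female whole cell extract library. Sonicated chromatin was female throughout, with 2 libraries each of the knock-in, the wild type and the extract. No expression was measured, so the cell type label could not be checked against markers.

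NK genes are best known as selectors of cell identity. In the ventral neural tube, Sonic hedgehog signalling switches on Nkx2-2, Nkx2-9, Nkx6-1 and Nkx6-2, whose products repress the programmes of neighbouring progenitor domains, and outside the nervous system other NK genes mark the heart, thyroid, lung and skeleton. Smchd1 is a non-canonical protein of the structural maintenance of chromosomes family, known for its part in silencing the inactive X chromosome and some autosomal gene clusters.

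Each experiment was deposited as 1 list of peak positions with no value per library, and how the libraries entered it was not stated. No read depth, replicate spread or difference between knock-in and wild-type cells can therefore be given for any peak. The MNase list held 2840 peaks with a median width of 450 bp, and the sonication list held 2196 peaks with a median width of 300 bp, the smallest width in both. A gene without a peak is a gene at which none was called, not one shown to be free of Smchd1. None of the 9 genes lay in any of the 11 broad domains of the authors' domain list. Of the chromosomes of these genes, chromosome 12 alone had any, the nearest 36.1 Mb from Nkx2-1.

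MNase peaks lay at most of these genes, and sonication peaks at none of them. Within 5 kb of the gene, 6 of the 9 had an MNase peak: Nkx6-1, Nkx2-1, Nkx2-4, Nkx2-9, Nkx3-2 and Nkx1-2. Among all coding genes the share with an MNase peak at that distance was 5.28%. Inside the gene span, 2 of the 9 had one, Nkx6-1 and Nkx2-1, and the share of coding genes was 4.13%. Extending the reach to 50 kb added no further gene, leaving 6 of 9, while the share of coding genes was 11.3%. The 3 without an MNase peak at any of these distances were Nkx2-2, Nkx2-5 and Nkx6-2. As the list of genes was drawn up with these peaks in view, nothing is read from the gap between the members and the other genes.

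In the sonication list, 0 of the 9 genes had a peak inside the gene, within 5 kb or within 50 kb, against 2.92%, 3.38% and 7.84% of coding genes. The closest sonication peak to any of them was 450 bp wide and lay 88.8 kb from Nkx6-1. The next lay 288 kb from Nkx3-2, and those of the other 7 lay between 505 kb (Nkx2-9) and 4.15 Mb (Nkx2-5) away. A count of 0 of 9 is near these background shares and is not a result about the Nkx genes. The MNase and sonication lists were not compared by a test.

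**Figure D1:**
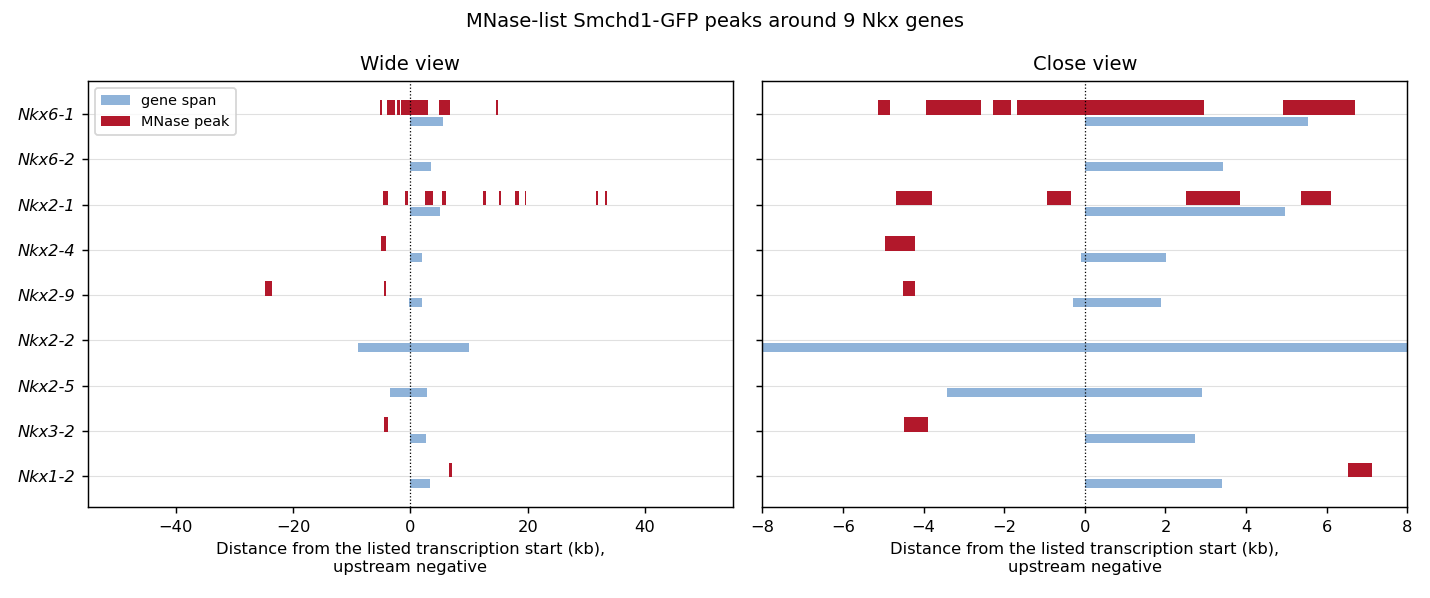
Positions of MNase-list peaks (red) and gene spans (blue) around 9 Nkx genes, in kb from the transcription start listed by RefSeq, with upstream negative; the left panel reaches beyond 50 kb on either side and the right panel is a close view. Nkx6-1 has a broad group of peaks across its start, Nkx2-1 a spaced series, 4 genes (Nkx1-2, Nkx2-4, Nkx2-9 and Nkx3-2) a single peak in the close view, and Nkx6-2, Nkx2-2 and Nkx2-5 none.

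Nkx6-1 and Nkx6-2 are close relatives that act together in ventral neural progenitors, Nkx6-1 being needed also for motor neurons and pancreatic beta cells and Nkx6-2 known also from oligodendrocytes. They stood at opposite ends of the set, Nkx6-1 with the most peak sequence and Nkx6-2 with none. Nkx6-1, on chromosome 5 from 101659184 to 101664711 in mm10, had 7 MNase peaks within 5 kb and an eighth, of 300 bp, 9134 bp beyond its end. The 7 peaks covered 8411 bp, or 54.2% of the gene with its flanks, and 64.7% of the gene span itself. Counting Nkx6-1 itself, 34 of the 21779 coding genes (0.156%) had at least as many peak bases within 5 kb, and 46 (0.211%) had at least 7 peaks. Nkx6-2, on chromosome 7 from 139579376 to 139582797, had 0 peaks, and the nearest MNase peak was 1.18 Mb away.

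The widest of the Nkx6-1 peaks, of 4050 bp from 101662351 to 101666400, reached from 1689 bp upstream of the transcription start to 2360 bp downstream. Counting this peak, 21 of the 2840 MNase peaks (0.739%) were at least that wide. A peak of 600 bp adjoined it without a gap inside the gene, so the unbroken stretch measured 4650 bp. Peaks of 600 and 1200 bp, also adjoining, lay over the far end of the gene, from 4911 to 6710 bp downstream of the start. Upstream, peaks of 450, 1350 and 300 bp lay at 1840 to 2289, 2590 to 3939 and 4840 to 5139 bp from the start. From the first to the last of these 7 peaks ran 11.8 kb, of which 72.2% was in peaks. With adjoining peaks joined, the 7 peaks made 5 stretches, spread over the gene and both of its flanks.

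The 300 bases around each start (250 before and 50 after it, on the minus strand, from RefSeq, build GRCm38.p6) are printed for this pair because the Nkx6-1 window lay wholly inside the 4050 bp peak and the Nkx6-2 window in none. The windows are chr5:101664662-101664961 for Nkx6-1 and chr7:139582748-139583047 for Nkx6-2, and capitals mark CpG dinucleotides.
Nkx6-1: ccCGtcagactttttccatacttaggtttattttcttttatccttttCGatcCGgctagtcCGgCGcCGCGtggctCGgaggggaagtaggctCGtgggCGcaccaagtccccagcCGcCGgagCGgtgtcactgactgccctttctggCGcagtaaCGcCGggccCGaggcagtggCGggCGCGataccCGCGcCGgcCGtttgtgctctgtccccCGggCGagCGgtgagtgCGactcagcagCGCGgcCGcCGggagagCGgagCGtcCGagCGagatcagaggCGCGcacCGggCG
Nkx6-2: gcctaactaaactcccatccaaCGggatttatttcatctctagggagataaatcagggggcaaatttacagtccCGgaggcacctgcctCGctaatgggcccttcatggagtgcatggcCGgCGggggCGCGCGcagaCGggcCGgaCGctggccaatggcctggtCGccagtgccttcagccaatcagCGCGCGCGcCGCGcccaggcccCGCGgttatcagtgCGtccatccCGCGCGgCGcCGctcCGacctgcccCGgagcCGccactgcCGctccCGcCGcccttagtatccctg
The Nkx6-1 window held 40 CpG dinucleotides and the Nkx6-2 window 32, at GC contents of 67.3% and 66.7%. Both are thus dense in CpG, with or without a called peak.

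Nkx2-1, the thyroid and lung factor that also specifies ventral forebrain, had the second largest amount of peak sequence. The gene lies on chromosome 12 from 56531935 to 56536908. Within 5 kb it had 4 MNase peaks covering 3600 bp, or 24.0% of the gene with its flanks; 86 coding genes (0.395%) had at least as many peak bases. The widest, of 1350 bp, lay inside the gene, 2508 to 3857 bp downstream of the start, and 27.1% of the gene span was in it. A peak of 750 bp lay 385 bp beyond the end of the gene. Upstream of the start, peaks of 600 and 900 bp lay at 343 to 942 and 3793 to 4692 bp. Further out, 6 more peaks of 300 to 750 bp lay 7435 to 28285 bp beyond the end of the gene, all 6 inside the non-coding gene Sfta3-ps. With these, Nkx2-1 had 10 peaks within 50 kb, more than Nkx6-1 with 8, and 63 coding genes (0.289%) had at least 10. The peaks at Nkx2-1 thus formed a spaced series rather than a block, and the longest unbroken stretch was that single peak of 1350 bp.

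**Figure D2:**
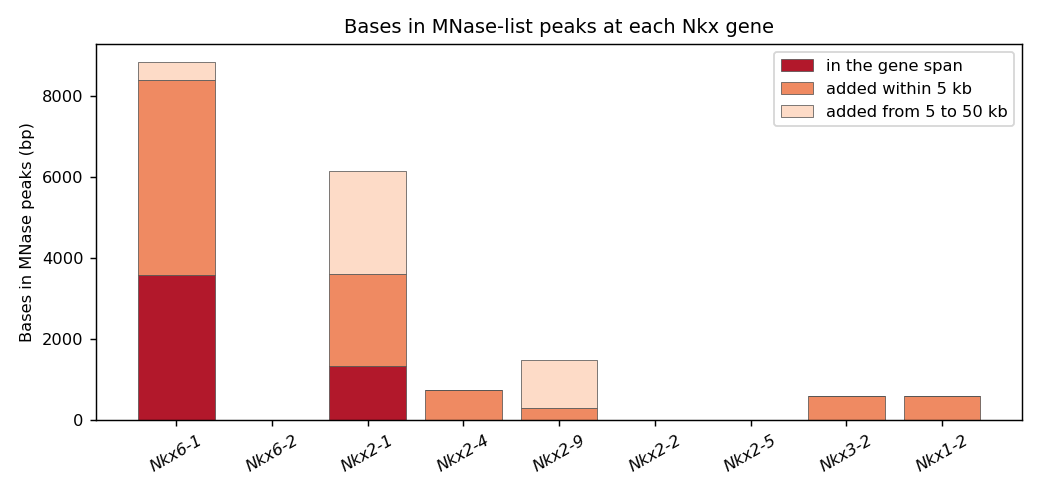
Bases in MNase-list peaks (y axis, bp) at each of 9 Nkx genes (x axis), stacked by position: in the gene span, added within 5 kb of it, and added from 5 to 50 kb. Nkx6-1 reaches 8850 bp and Nkx2-1 6150 bp within 50 kb, the next is Nkx2-9 with 1500 bp, and Nkx6-2, Nkx2-2 and Nkx2-5 are at 0.

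Nkx2-9 and Nkx2-4 each had a single peak within 5 kb. Nkx2-9, which works beside Nkx2-2 next to the floor plate of the neural tube, lies 74.5 kb from Nkx2-1 on chromosome 12, from 56611389 to 56613569. Its peak within 5 kb was 300 bp wide, 4217 to 4516 bp upstream of the start, and a wider one, of 1200 bp, lay 23567 to 24766 bp upstream. Nkx2-4, the nearest relative of Nkx2-1, expressed in hypothalamus, lies on chromosome 2 from 147083337 to 147085439. Its peak of 750 bp lay 4206 to 4955 bp upstream of the start, inside the non-coding gene Gm34889. Of the 15 MNase peaks within 5 kb of these genes, none was within 5 kb of another coding gene, but the Nkx2-9 peak and both upstream peaks of Nkx2-1 lay inside a non-coding gene, Gm26973, on chromosome 12. Peaks at Nkx3-2 and Nkx6-1 also lay within 5 kb of the non-coding genes Gm46910 and Gm42132 without overlapping them.

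Nkx2-2, which specifies the most ventral neuronal progenitors of the neural tube and later oligodendrocytes, had 0 MNase peaks. The gene lies on chromosome 2 from 147176485 to 147195434, and the nearest peak, 86.2 kb away, was the peak at Nkx2-4. The promoter windows of Nkx2-1, which had a called peak 343 bp upstream of its start, and of Nkx2-2, which had none in reach, are given for comparison. The start listed for Nkx2-2, at 147186402, lies inside its gene span. The windows are chr12:56536859-56537158 and chr2:147186353-147186652, both minus strand, RefSeq build GRCm38.p6, with CpG dinucleotides in capitals.
Nkx2-1: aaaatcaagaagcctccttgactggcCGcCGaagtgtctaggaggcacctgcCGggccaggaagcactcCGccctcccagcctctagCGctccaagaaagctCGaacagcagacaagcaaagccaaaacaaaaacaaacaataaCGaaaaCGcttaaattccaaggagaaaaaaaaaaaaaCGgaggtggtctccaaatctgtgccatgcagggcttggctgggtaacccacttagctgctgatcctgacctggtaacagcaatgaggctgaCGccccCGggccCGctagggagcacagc
Nkx2-2: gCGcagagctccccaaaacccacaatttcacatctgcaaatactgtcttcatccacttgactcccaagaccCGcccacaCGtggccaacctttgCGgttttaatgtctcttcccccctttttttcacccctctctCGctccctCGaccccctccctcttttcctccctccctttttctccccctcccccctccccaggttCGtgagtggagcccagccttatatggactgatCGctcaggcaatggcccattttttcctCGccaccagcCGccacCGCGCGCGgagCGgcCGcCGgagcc
The Nkx2-1 window held 12 CpG dinucleotides at 53.7% GC and the Nkx2-2 window 17 at 59.7% GC. By this count the gene closer to a peak was the poorer of the pair in CpG, but in the 250 bases before the start alone the ratio of observed to expected CpG was 0.564 for Nkx2-1 and 0.539 for Nkx2-2, the other way round.

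The Nkx2 genes of chromosomes 12 and 2 sit in a pair of paralogous segments, Nkx2-1, Nkx2-9 and Pax9 on chromosome 12 and Nkx2-4, Nkx2-2 and Pax1 on chromosome 2. Pax9 and Pax1 encode paired-box factors of the vertebral column, pharyngeal pouches and, for Pax9, teeth. With 5 kb on each side, the 181 kb chromosome 12 segment held 16 MNase peaks with 12300 bp, or 6.44% of its length. The 292 kb chromosome 2 segment held 5 MNase peaks with 3150 bp, or 1.04% of its length. Neither held a sonication peak. In the chromosome 12 segment, 4 of the 16 peaks lay within 5 kb of Nkx2-1, 1 of Nkx2-9 and 7 of Pax9. In the chromosome 2 segment, 1 lay at Nkx2-4, 2 in Pax1, of 600 and 1200 bp, and 2 of 300 bp between Nkx2-2 and Pax1, inside the overlapping non-coding genes Nkx2-2os and Gm14110. In both segments the gene between the outer pair had fewer peak bases within 5 kb than either outer gene. On chromosome 12 these were 300 bp at Nkx2-9, 3600 bp at Nkx2-1 and 5100 bp at Pax9. On chromosome 2 they were 0 bp at Nkx2-2, 750 bp, in 1 peak, at Nkx2-4 and 1800 bp at Pax1. The genes, and so these windows, differ in length. The Nkx genes were chosen with the peaks known, and this order was not tested.

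**Figure D3:**
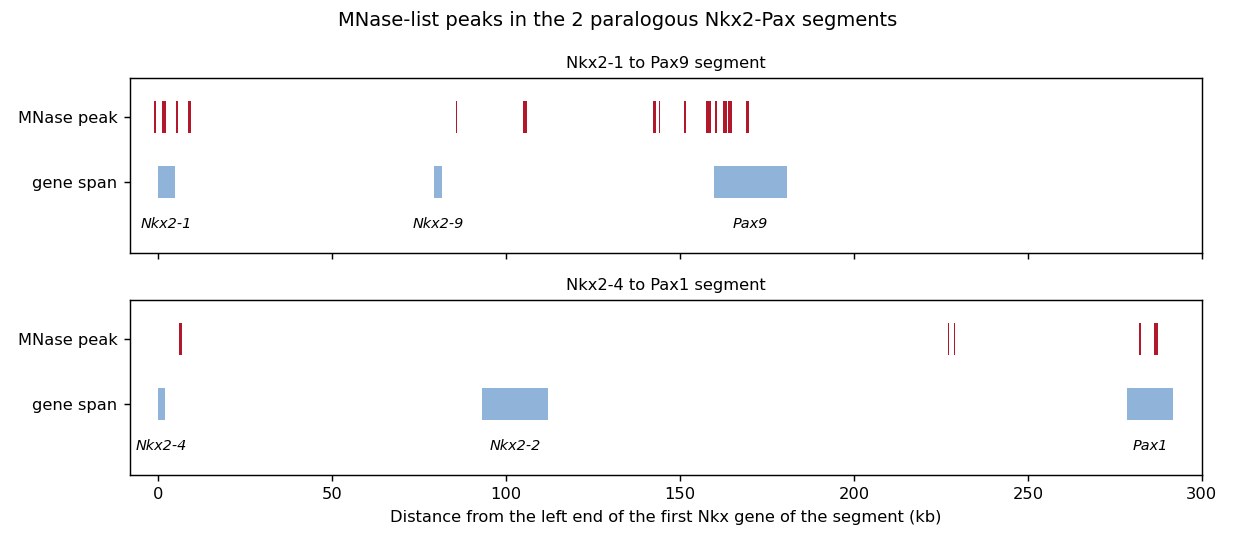
MNase-list peaks (red) and coding gene spans (blue) in the paralogous segments from Nkx2-1 to Pax9 (top) and from Nkx2-4 to Pax1 (bottom), drawn to the same scale in kb from the left end of the first Nkx gene. The top segment has 16 peaks, gathered at Nkx2-1 and Pax9, and the bottom segment 5, with none at Nkx2-2.

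Nkx3-2 and Nkx1-2 each had 1 MNase peak of 600 bp. Nkx3-2, also called Bapx1, a regulator of cartilage in the vertebrae and of the jaw joint, lies on chromosome 5 from 41761483 to 41764220. Its peak lay 3881 to 4480 bp upstream of the start. Nkx1-2, also called Sax1, a gene of the caudal neural plate, lies on chromosome 7 from 132596239 to 132599637. Its peak lay 3139 bp beyond the end of the gene, 6537 to 7136 bp downstream of the start, so Nkx1-2 was the only one of the 6 with no peak upstream of its start. Widths of 600 bp were ordinary for the list, since 38.1% of MNase peaks were at least that wide.

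Nkx2-5, the heart factor, had 0 MNase peaks within 50 kb. It lies on chromosome 17 from 26838664 to 26844988, and the nearest peak was 334 kb away. Outside the list, 4 further Nkx genes were read, and they had 0 peaks within 5 kb in either list. These are Nkx1-1, Nkx2-3, a gene of gut and spleen, Nkx2-6, of pharynx and heart, and Nkx6-3, of stomach. Within 50 kb, 1 of the 4 had an MNase peak, Nkx6-3, at 49.1 kb and inside the neighbouring gene Gpat4. With 5.28% of coding genes having an MNase peak and 3.38% a sonication peak within 5 kb, and 11.3% an MNase peak within 50 kb, counts of 0 and 1 among 4 genes are not set apart from the background. Over these 13 Nkx genes, 6 (46.2%) had an MNase peak within 5 kb, all 6 from the list chosen with the peaks known. Inside the 5 kb limit, Nkx2-4 lay 4112 bp, Nkx2-9 3932 bp, Nkx3-2 3881 bp and Nkx1-2 3139 bp from their nearest peak. The nearest outside were Nkx6-3 at 49.1 kb and Nkx2-2 at 86.2 kb. None of the 13 had its nearest MNase peak between 5 kb and 49.1 kb away, so the count of 6 was the same for any limit in that interval. Limits shorter than the distances given above lower the count, which was 2 in the gene span alone.

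Most of the peaks were not at the transcription start. The promoter table lists 1 start for each of the 9 genes, all on the minus strand, and 14731 coding genes with a single listed start were used beside them. For Nkx2-2 and Nkx2-5 the listed start, at 147186402 and 26841565, lay well inside the gene span, which reached 147195434 and 26844988. Values by distance from the start refer to that listed start. A peak overlapped the 300-base promoter window in 1 of the 9, Nkx6-1, and in 0.964% of coding genes. Within 1 kb of the start, 2 of 9 had a peak, Nkx6-1 and Nkx2-1, and 1.6% of coding genes. Both shares of coding genes were well below the 5.28% of all 21779 coding genes with a peak within 5 kb of the gene. Peaks away from the start are thus not particular to the Nkx genes. Between 3 and 5 kb upstream, 5 of 9 had one (Nkx2-1, Nkx2-4, Nkx2-9, Nkx3-2 and Nkx6-1), and 0.591% of coding genes. In the mirror window, 3 to 5 kb downstream, 2 of 9 had one, Nkx2-1 and Nkx6-1, and 0.618% of coding genes. Over coding genes, the share with a peak was highest in the 1 kb bins on either side of the start, 1.24% upstream and 1.11% downstream, and was 0.434% in the bin from 4 to 5 kb upstream, where 5 of the 9 Nkx genes had a peak. The genes were chosen with the peaks known and the windows were set after the peak positions were seen, so the difference in profile was not tested. The 1 kb bins were not cut at 5 kb but ran to 10 kb on either side. From 6 to 10 kb upstream, 0 of the 9 had a peak. Of the 15 peaks within 5 kb, 8 lay wholly upstream of the start, 1 lay over it and 6 lay downstream.

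**Figure D4:**
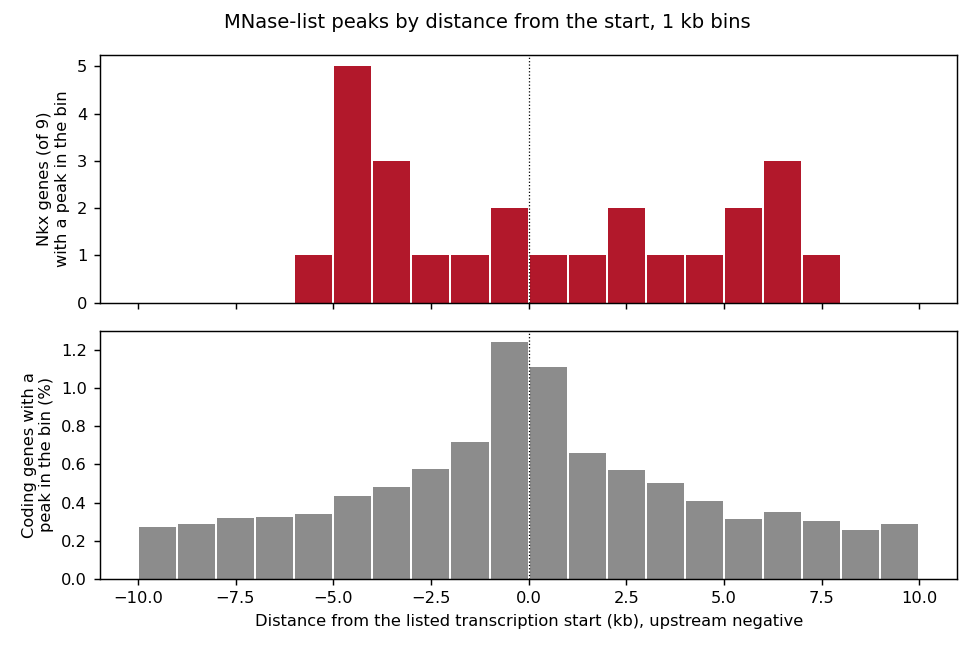
Number of the 9 Nkx genes (top) and percentage of 14731 coding genes with a single listed start (bottom) that have an MNase-list peak in each 1 kb bin around the transcription start, with distance in kb on the x axis and upstream negative. The Nkx genes have their highest bar, 5 genes, at 4 to 5 kb upstream, and the coding genes theirs, 1.24%, in the first kb upstream.

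The 15 peaks within 5 kb of the Nkx genes were, with a median width of 600 bp, wider than the 450 bp median of the whole MNase list. They lay on 4 chromosomes and ran from 300 bp to 4050 bp, and 2 had the smallest width. The Nkx6-1 and Nkx2-1 peaks made up 11 of the 15. The list gives no height for a peak, so a wide peak is not shown to be a strong one.

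Promoter composition, which played no part in choosing the genes, varied widely among them. The ratio of observed to expected CpG dinucleotides had a median of 0.761 over the 9 promoters, with a range of 0.466 to 1.18, and a median of 0.559 over the 14731 coding promoters. Nkx6-1 had the highest ratio, 1.18, and 99.1% of coding promoters were at or below it. Nkx2-4 followed at 1.10 and Nkx6-2 at 0.972, at or above 97.2% and 90.0% of coding promoters. Nkx2-2 was at 0.791, Nkx3-2 at 0.761 and Nkx1-2 at 0.643. Nkx2-9 and Nkx2-1, at 0.571 and 0.559, were close to the coding median, and Nkx2-5 was lowest at 0.466. The 6 genes with a peak within 5 kb ranged from 0.559 to 1.18 and the 3 without from 0.466 to 0.972, so the groups overlapped. Their medians were 0.702 for the 6 with a peak and 0.791 for the 3 without. Coding genes were split otherwise, by a peak over the promoter window itself and not by one within 5 kb. The 142 promoters that overlapped an MNase peak had a median ratio of 0.788, and the 14589 that did not had a median of 0.553. By that split Nkx6-1 alone of the 9 had a peak, and its ratio was the highest of the 9. The 2 splits are therefore not set against each other.

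**Figure D5:**
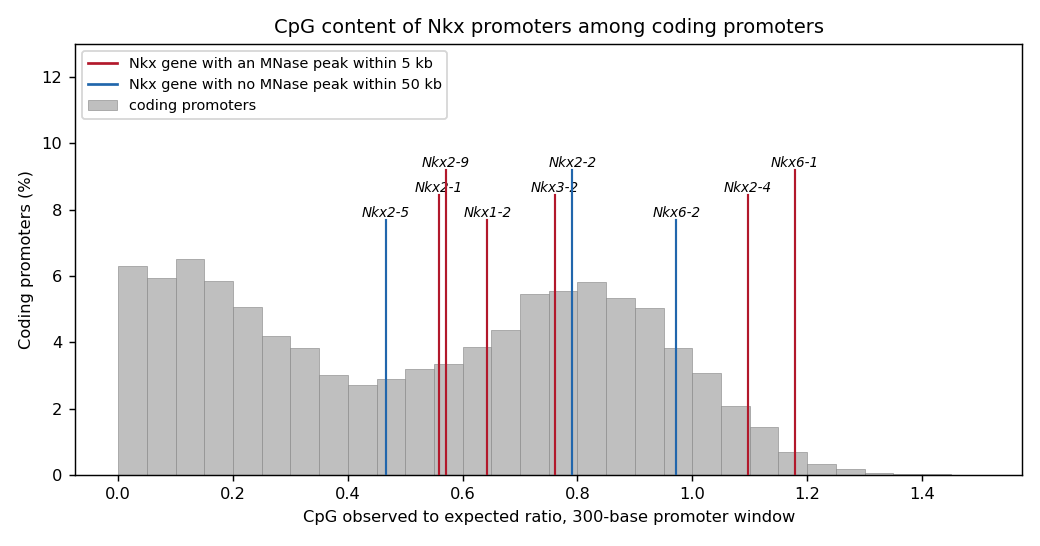
Ratio of observed to expected CpG in the 300-base promoter window (x axis) of each Nkx gene with an MNase peak within 5 kb (red lines), each Nkx gene with none within 50 kb (blue lines), and of coding promoters (grey bars, percentage on the y axis; ratios above 1.5 are not drawn). Line heights carry no value. The red lines run from 0.559 to 1.18 and the blue lines from 0.466 to 0.972, within the same range.

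The same windows were searched on both strands for 3 motifs of NK and other homeodomain factors. CAAGTG, the core bound by NK2 factors, was found in 2 of the 9 promoters, Nkx2-2 and Nkx1-2, and in 13.1% of coding promoters. The homeodomain core TAATTA was found in 0 of the 9 and in 4.88% of coding promoters, and CACTTAA, another NK2 site, which can overlap TAATTA, in 0 of 9 and in 2.15%. A missing match says only that these letters are not in the window.

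Genes of neural tube patterning, ventral and dorsal, were read the same way. Of 27 genes of hedgehog signalling and neural tube patterning, 7 had an MNase peak within 5 kb (25.9%) and 2 a sonication peak (7.41%), beside the 5.28% and 3.38% of coding genes given above. The list was chosen with earlier results known. Pax3, a dorsal neural tube and neural crest factor, had 9 MNase peaks with 7650 bp, near the 8411 bp of Nkx6-1. Isl1, a motor neuron factor, had 7 with 6300 bp. Msx1, a dorsal homeobox gene, and Sim1, of ventral V3 interneurons and the hypothalamus, had 5 with 5100 bp each, and both also had 1 sonication peak. Evx1, of V0 interneurons, had 5 with 3750 bp, and it adjoins the HoxA cluster. En1, of V1 interneurons, and Ptch1, the receptor of Sonic hedgehog, had 1 each. Shh, Foxa2, Olig2, Pax6 and the other 16 genes had none within 5 kb in either list. Within 50 kb, 8 of the 27 had an MNase peak (29.6%) and 4 a sonication peak (14.8%). The shares of coding genes at that reach were 11.3% and 7.84%.

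Of 32 other homeobox genes related to the NK class, 7 had an MNase peak within 5 kb (21.9%) and 1 had a sonication peak (3.12%), beside 5.28% and 3.38% of coding genes. The sonication share is thus near its background. This list too was chosen with earlier results known, so nothing is read from its MNase share, which was not tested. Msx1 and En1 stand in both lists. Dlx6, a forebrain and jaw gene, had 6 MNase peaks with 3000 bp, Dlx2, an interneuron gene, 2 with 1350 bp, and Vax2, of ventral eye and forebrain, 2 with 1050 bp. En2, of midbrain and cerebellum, and Hmx1, of sensory ganglia, had 1 each, of 600 bp. Among these relatives none reached the 8411 peak bases of Nkx6-1, and Msx1 alone was above the 3600 bp of Nkx2-1. The nearest coding neighbours of the Nkx genes were read too, apart from other Nkx genes, Pax1 and Pax9. Bod1l, 23.3 kb from Nkx3-2, and Mbip, 186 kb from Nkx2-1, had an MNase peak within 5 kb, 1 each. Oat and Lhpp beside Nkx1-2, Xrn2 beside Nkx2-4, Bnip1 and Kifc5b beside Nkx2-5, Rab28 beside Nkx3-2, Gpat3 and Gm42134 beside Nkx6-1, and Pwwp2b, Cfap46 and the overlapping Inpp5a at Nkx6-2 had none. Gm42134, 58.4 kb from Nkx6-1, had 1 sonication peak within 5 kb, the only one among these neighbours. With 5.28% of coding genes having an MNase peak and 3.38% a sonication peak at that distance, nothing is read from counts in so few neighbours.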

How the data were processed

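Per the labels' protocols, neural stem cells were fixed with formaldehyde and their chromatin was sheared by sonication for 30 minutes or digested with MNase before the pull-down. The submitters' processing notes list bcl2fastq, Bowtie 0.12.9, MACS2 and build mm10. The deposited peak lists, 1 per experiment, give start and end in base pairs and no other value; SeqMonk is named in the MNase list itself. No role is stated for any tool, and how libraries were pooled and which control was set against the knock-in was not stated in what was read here. Peaks lie on a grid of 150 bp, so widths move in such steps.

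Genes were taken from RefSeq (GRCm38.p6, the assembly of mm10), leaving out 340 records in the first 3 Mb of chromosomes other than Y, which left 49603 records, 21779 of them coding. A peak was assigned by an overlap of at least 1 bp with the gene or its flanks of 5 or 50 kb (Python 3.11.15, pandas 2.3.3). Promoter sequences matched 9 of 9 genes; the proteins' homeodomains were not compared here. Overlap counts were checked on simulated positions. With 1 list per experiment, no test was made and no depth or interval between libraries could be given. The members and gene lists were chosen with earlier results of these data known. Named were all 9 members, other Nkx genes (not all are reported here), the nearest coding genes, genes that share a peak with a member, and list genes with a peak within 5 kb. Sfta3-ps, Nkx2-2os, Gm14110, Gpat4 and the list genes Shh, Foxa2, Olig2 and Pax6 were named after their values were seen.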

Additional observations from a re-analysis of the deposited data

How the results depend on the processing

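No paired analysis was possible because the lists give no value per library; for the same reason no replicate could be left out. The count of 6 Nkx genes with an MNase peak within 5 kb was 2 when only the gene span was used, 5 with peaks wider than 300 bp (Nkx2-9 was lost) and 5 within 5 kb of the transcription start (Nkx1-2 was lost). It was 6 within 50 kb and with peak midpoints. The count for the sonication list was 0 in every setting run. The 15 peaks became 13 with adjoining peaks merged, 10 with peaks up to 1 kb apart merged and 13 with wider peaks alone. The 14261 peak bases within 5 kb were 4928 bp in gene spans and, in an alternative chosen after seeing the data, 5850 bp without Nkx6-1, so Nkx6-1 held most of them. The background share of 5.28% was 3.72% over all genes of the table, 4.13% for gene spans and 11.3% within 50 kb. The median CpG ratio of 0.761 was 0.666 for the 250 bases before the start. Depth, and with it the power to call a peak at a gene listed without one, is unknown.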
